A study of Homo sapiens with 6 samples.

Results

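Human mitochondrial DNA (mtDNA) carries 37 genes, and all 37 were present in the count table of 22Rv1, a cell line from a human prostate carcinoma, after knockdown of MED12. They were chosen as the rows whose gene name starts with MT-, which gave 37 of 62703 genes, made up of 13 mRNAs, 2 rRNAs and 22 tRNAs. The cells were transfected with 25 pmol of a pool of small interfering RNAs, either non-targeting (siCtrl, n = 3) or directed against MED12 (siMED12, n = 3). They had been seeded 24 hours earlier, the medium was changed 6 hours after transfection, and RNA was taken at day 3, so that both groups had been through the same transfection. The libraries were strand-specific and were made from RNA selected for poly(A) tails. Each library carries a replicate number from 1 to 3. The study's methods describe replicates in general as biological, and the labels do not say how those of these libraries were set up.

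The mitochondrial chromosome is transcribed on both strands by the polymerase POLRMT, from promoters in its noncoding control region, into long RNAs that are cut mainly at the tRNAs lying between the other genes. The 13 mRNAs code for core subunits of the respiratory chain, the 2 rRNAs form the mitochondrial ribosome and the 22 tRNAs serve it. Here 28 genes lie on the plus strand of the reference and are copied from the heavy strand, and 9 lie on the minus strand and are copied from the light strand, namely MT-ND6 and 8 tRNAs. Mitochondrial mRNAs usually receive a short poly(A) tail, whereas the mRNA of MT-ND6 is known to carry little or none, and mature tRNAs carry none. Many nuclear genes are needed as well, since the polymerase, the processing enzymes and most respiratory subunits are encoded in the nucleus.

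Reference sequence shows why a tail matters for these mRNAs and where the 2 strands meet. In GRCh38, 6 of the 13 mRNA genes stop short of a complete last codon, 5 of them in a single T and 1 in TA, and the tail completes the stop codon. The last 40 bases of 3 genes are shown 5′ to 3′, with the last complete or incomplete codon in capitals. MT-ND4 (plus strand, chrM:12098-12137) ends in a single T, whereas MT-ND5 (plus strand, chrM:14109-14148) and MT-ND6 (minus strand, chrM:14149-14188) have complete last codons and run towards each other, so that their 3′ ends adjoin.
MT-ND4: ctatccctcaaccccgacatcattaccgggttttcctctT
MT-ND5: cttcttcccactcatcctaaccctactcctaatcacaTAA
MT-ND6: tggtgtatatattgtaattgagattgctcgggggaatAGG
MT-ATP8 and MT-ATP6 share bases, which matters for counting. The stretch at chrM:8512-8587 on the plus strand is shown with the 46 bases that belong to both genes (chrM:8527-8572) in capitals, and a read inside it cannot be given to either gene alone.
MT-ATP8 and MT-ATP6: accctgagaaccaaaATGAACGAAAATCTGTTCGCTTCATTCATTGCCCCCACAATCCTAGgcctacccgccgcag
The tRNAs with the most counts, and the minus strand tRNAs whose values are described below, are shown with the anticodon in capitals. MT-TL1 (leucine, chrM:3230-3304), MT-TD (aspartate, chrM:7518-7585) and MT-TT (threonine, chrM:15888-15953) are plus strand genes. MT-TS1 (serine, chrM:7446-7514), MT-TP (proline, chrM:15956-16023), MT-TQ (glutamine, chrM:4329-4400) and MT-TE (glutamate, chrM:14674-14742) are minus strand genes.
MT-TL1: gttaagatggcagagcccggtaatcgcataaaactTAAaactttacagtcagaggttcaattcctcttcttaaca
MT-TD: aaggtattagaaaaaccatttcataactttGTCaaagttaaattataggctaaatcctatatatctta
MT-TT: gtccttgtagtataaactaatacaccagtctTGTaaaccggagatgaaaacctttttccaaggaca
MT-TS1: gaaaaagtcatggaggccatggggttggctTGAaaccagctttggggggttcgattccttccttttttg
MT-TP: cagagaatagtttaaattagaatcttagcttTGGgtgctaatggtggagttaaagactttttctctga
MT-TQ: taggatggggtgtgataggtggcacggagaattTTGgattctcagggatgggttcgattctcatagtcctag
MT-TE: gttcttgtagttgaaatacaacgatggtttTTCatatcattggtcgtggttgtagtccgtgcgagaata

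The libraries held 16136699 to 17012788 counts. In siCtrl 1, 2 and 3 the level of MED12 was 68.9, 74.4 and 71.0 CPM, which stands for counts per 1000000 assigned counts. The siMED12 libraries had 24.9, 15.05 and 29.8 CPM, which fits the labels. All 11 markers of prostate epithelium were detected, with a summed level of 3401 to 4308 CPM. Endothelial and leukocyte markers summed to at most 0.121 and 0.372 CPM, and 5 stromal markers, mostly COL1A1 and LUM, to 27.2 to 42.4 CPM. The siCtrl and siMED12 libraries of a given number resembled each other in their departures from the group means, so the numbers were treated as pairs.

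The mitochondrial genes took a similar share of the counts with and without MED12 knockdown, and a share that differed widely between replicate numbers. The mean was 6.91% ± 2.83 (SD, n = 3) in siCtrl and 6.98% ± 2.78 (SD, n = 3) in siMED12, a difference of 0.0658 percentage points (exact permutation test, two-sided, p = 0.9, where 0.1 is the smallest p that 3 against 3 libraries allow). Within the pairs siMED12 differed from siCtrl by 0.367, -0.277 and 0.107 percentage points for numbers 1, 2 and 3. The direction of this small difference turned when siCtrl 1, siCtrl 2 or siMED12 3 was left out, to -1.175, -0.236 and -1.498 percentage points. A share of counts falls either when cells hold less of these RNAs or when other RNAs gain, and in bulk RNA fewer cells of a type and less RNA per cell cannot be told apart.

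**Figure D1:**
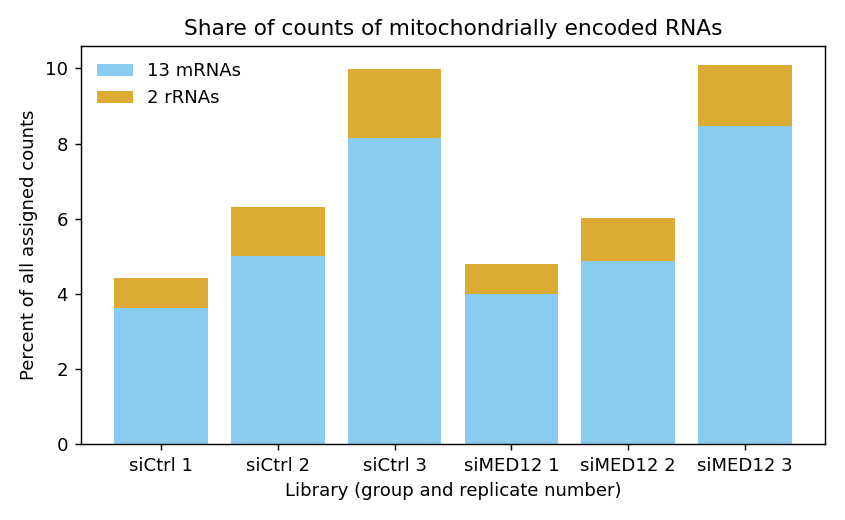
Percent of all assigned counts (vertical axis, from 0) taken by the 13 mRNAs and the 2 rRNAs in each of the 6 libraries, with 1 bar per library. The 22 tRNAs are not drawn because they took at most 0.00947% of the counts. The bars of libraries with the same replicate number resemble each other in both groups, and those of number 3 are the tallest.

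The mRNAs made up most of the mitochondrial counts in every library. They held 82.2%, 79.2% and 81.6% of them in siCtrl 1, 2 and 3, and 83.5%, 80.8% and 83.8% in siMED12 1, 2 and 3, which is 1.38, 1.64 and 2.27 percentage points more in the siMED12 library of each pair. The 2 rRNAs held 17.7%, 20.7% and 18.4% in siCtrl and 16.4%, 19.1% and 16.1% in siMED12, less in siMED12 in 3 of 3 pairs. The groups overlapped in both measures. The ratio of rRNA to mRNA counts was 0.216, 0.262 and 0.225 in siCtrl and 0.196, 0.236 and 0.192 in siMED12 (exact permutation test over libraries, two-sided, p = 0.3). The exact sign-flip test over the 3 pairs gave p = 0.25, the smallest it can give. The tRNAs had only 697 to 1528 counts per library, at most 0.118% of the mitochondrial counts. The mRNA and rRNA parts thus nearly add up to the whole, and their differences and their ratio describe 1 observation.

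By complex, the 7 mRNAs of complex I (NADH dehydrogenase) held on average 27.2% ± 1.02 (SD, n = 3) of the mitochondrial counts in siCtrl and 28.4% ± 0.500 (SD, n = 3) in siMED12, and were higher in siMED12 in 3 of 3 pairs, by 0.625, 1.15 and 1.78 percentage points. The 3 mRNAs of complex IV (cytochrome c oxidase) held the largest part, 41.2% ± 1.55 (SD, n = 3) in siCtrl and 41.6% ± 1.84 (SD, n = 3) in siMED12. The single mRNA of complex III, MT-CYB, held 5.46% ± 0.240 (SD, n = 3) and 5.66% ± 0.212 (SD, n = 3). The 2 mRNAs of complex V (ATP synthase) held 7.09% ± 0.801 (SD, n = 3) and 7.09% ± 0.734 (SD, n = 3). No difference between the groups in these parts reached the smallest p of 0.1 by the exact permutation test. The lowest exact p was 0.2, for complex I.

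Per length, the order of the 13 mRNAs and 2 rRNAs was nearly the same in all 6 libraries. Levels between genes were compared as TPM values, which divide counts by gene length and are scaled to a fixed total. MT-CO1, the catalytic core subunit of complex IV, ranked 1 and MT-CO2, the subunit that takes electrons from cytochrome c, ranked 2 in 6 of 6 libraries. MT-CO1 reached 22688 TPM in siCtrl 1 and 45524 TPM in siMED12 3, the lowest and highest of its 6 values. MT-RNR2, MT-ATP6 and MT-CO3 took ranks 3 to 5 in changing order and could not be separated beyond the spread of the libraries. MT-ND4, MT-ND4L and MT-CYB held ranks 6, 7 and 8 in every library. MT-ND1, MT-ND2, MT-ND3, MT-ND5 and MT-RNR1 exchanged places between ranks 9 and 13. MT-ATP8 was at rank 14 and MT-ND6 at rank 15 throughout. MT-ND6 was thus the lowest mRNA even in the libraries in which it was highest. Since the spread between replicate numbers within a group was wide, neighbours in this order were separated by their rank within a library and not by their means.

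**Figure D2:**
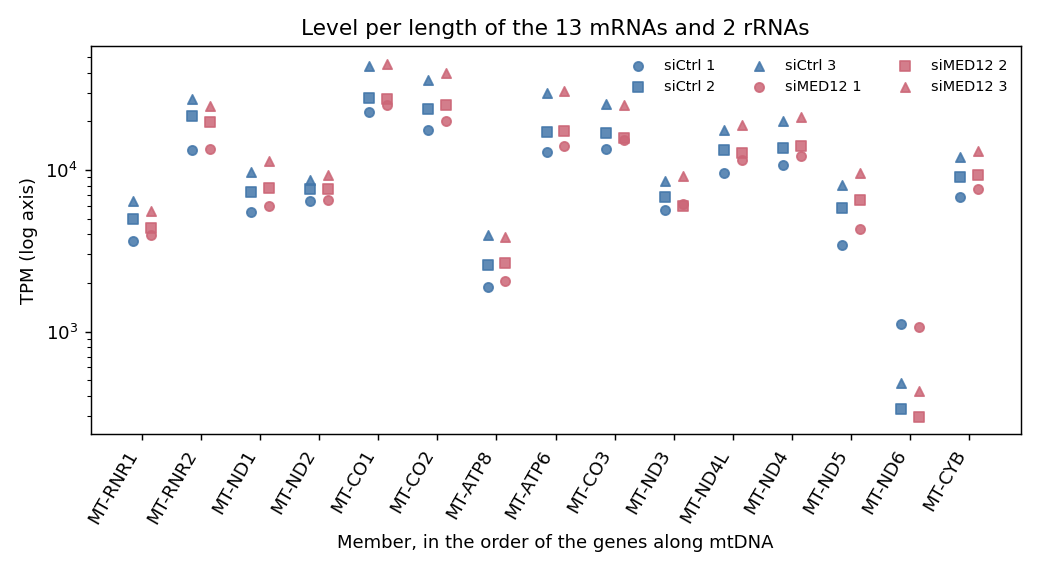
Level per length in TPM (log axis) of the 13 mRNAs and 2 rRNAs, in the order of the genes along mtDNA. Each point is 1 library, with colour for the group and shape for the replicate number. MT-CO1 is the highest and MT-ND6 the lowest in each library, and MT-ND6 is the only gene of the 15 whose highest points are those of replicate number 1.

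Complex I was represented by 7 mRNAs, of which MT-ND1, MT-ND2, MT-ND3, MT-ND4, MT-ND4L and MT-ND5 are plus strand genes for membrane subunits of the proton-pumping arm. MT-ND4 (ENSG00000198886.2, chrM:10760-12137) took 0.477%, 0.648% and 1.04% of all counts in siCtrl 1, 2 and 3 and 0.532%, 0.639% and 1.08% in siMED12. MT-ND4L (chrM:10470-10766), whose last 7 bases overlap MT-ND4, took 0.0920%, 0.135% and 0.198% in siCtrl and 0.109%, 0.124% and 0.207% in siMED12. Both were lowest in number 1 and highest in number 3, and their ratio stayed between 4.79 and 5.23 in the 6 libraries. MT-ND1 (ENSG00000198888.2, chrM:3307-4262) took 0.169%, 0.238% and 0.351% in siCtrl and 0.181%, 0.243% and 0.401% in siMED12. MT-ND2 (chrM:4470-5511) took 0.217%, 0.272% and 0.339% in siCtrl and 0.215%, 0.262% and 0.357% in siMED12. MT-ND2 differed least between numbers 1 and 3 among the plus strand mRNAs. MT-ND3 (chrM:10059-10404) took 0.0632%, 0.0803% and 0.111% in siCtrl and 0.0678%, 0.0684% and 0.117% in siMED12, so that numbers 1 and 2 barely differed in siMED12. MT-ND5 (ENSG00000198786.2, chrM:12337-14148) took 0.200%, 0.360% and 0.555% in siCtrl and 0.246%, 0.391% and 0.642% in siMED12. It differed most between numbers 1 and 3 among the plus strand mRNAs and was higher in siMED12 in 3 of 3 pairs. The groups overlapped for all 6 genes.

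MT-ND6 (ENSG00000198695.2, chrM:14149-14673), the remaining complex I subunit and the only mRNA on the minus strand, went the other way. It had 3099, 984 and 1597 counts in siCtrl 1, 2 and 3 and 2854, 874 and 1337 counts in siMED12, which is 0.0188%, 0.00596% and 0.00952% of all counts in siCtrl and 0.0177%, 0.00514% and 0.00829% in siMED12. Its highest values were in number 1 in both groups. The ratio of MT-ND5 to MT-ND6 counts, for 2 genes whose 3′ ends adjoin, was 10.7, 60.4 and 58.3 in siCtrl and 13.9, 76.1 and 77.5 in siMED12. The ratio was higher in siMED12 in 3 of 3 pairs (exact sign-flip test, p = 0.25). Whether strand was used in counting is not stated in the sources used here, so reads of the opposite strand over MT-ND6 cannot be told apart from its own.

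MT-CYB (ENSG00000198727.2, chrM:14747-15887), the cytochrome b core of complex III, took 0.249%, 0.351% and 0.518% of all counts in siCtrl 1, 2 and 3 and 0.274%, 0.352% and 0.548% in siMED12. Number 3 was again the highest in both groups. In complex IV, MT-CO1 (ENSG00000198804.2, chrM:5904-7445) took 1.13%, 1.48% and 2.55% in siCtrl and 1.23%, 1.41% and 2.58% in siMED12, more than any other mitochondrial gene. MT-CO2 (chrM:7586-8269) took 0.388%, 0.561% and 0.928% in siCtrl and 0.435%, 0.566% and 1.001% in siMED12. MT-CO3 (chrM:9207-9990), the third core subunit, took 0.339%, 0.451% and 0.754% in siCtrl and 0.378%, 0.409% and 0.724% in siMED12. The 3 genes of complex IV kept the same order of replicate numbers, and the groups overlapped for each.

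In complex V, MT-ATP6 (ENSG00000198899.2, chrM:8527-9207), which forms the proton path through the membrane, took 0.283%, 0.397% and 0.770% of all counts in siCtrl 1, 2 and 3 and 0.302%, 0.390% and 0.772% in siMED12. MT-ATP8 (chrM:8366-8572), the small subunit encoded on the same mRNA, took 0.0125%, 0.0184% and 0.0309% in siCtrl and 0.0134%, 0.0181% and 0.0293% in siMED12. Although both lie on 1 transcript, MT-ATP6 had 21.5 to 26.3 times the counts of MT-ATP8. Per length this left MT-ATP6 well above MT-ATP8, as seen in the plot of TPM. Reads that touch the 46 shared bases printed above may have been lost or given to either gene, and they are a larger part of the shorter gene.

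The rRNAs also differed between replicate numbers. MT-RNR1 (ENSG00000211459.2, chrM:648-1601), the rRNA of the small ribosomal subunit, took 0.113%, 0.163% and 0.231% of all counts in siCtrl 1, 2 and 3 and 0.119%, 0.138% and 0.196% in siMED12. MT-RNR2 (ENSG00000210082.2, chrM:1671-3229), of the large subunit, took 0.672%, 1.14% and 1.60% in siCtrl and 0.665%, 1.01% and 1.43% in siMED12. MT-RNR2 was lower in siMED12 in 3 of 3 pairs and MT-RNR1 in 2 of 3. The ratio of MT-RNR2 to MT-RNR1 lay between 5.57 and 7.32 in the 6 libraries. Since poly(A) RNA was captured, these counts are not a measure of total rRNA.

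The tRNAs were barely represented, and 12 of the 22 passed the expression filter. MT-TL1, which follows MT-RNR2 without a gap, had the most counts, 353, 401 and 719 in siCtrl 1, 2 and 3 and 379, 546 and 773 in siMED12. MT-TS1, which lies directly behind MT-CO1 on the opposite strand, had 150, 99 and 424 counts in siCtrl and 137, 103 and 375 in siMED12. The mRNA of MT-CO1 is known to extend over the antisense of MT-TS1, and without strand in the counting the reads of the 2 genes could not be told apart. MT-TD, between MT-TS1 and MT-CO2, had 21, 29 and 61 counts in siCtrl and 5, 48 and 83 in siMED12. MT-TT, behind MT-CYB, had 16, 36 and 49 counts in siCtrl and 12, 31 and 94 in siMED12. These 4 tRNA genes were highest in number 3 in both groups. MT-TP, the gene nearest to the control region on the minus strand, had 63, 7 and 24 counts in siCtrl and 44, 2 and 13 in siMED12, and was highest in number 1. Of the other 17 tRNAs, none had over 56 counts in any library. MT-TS2 had no count in any library, where a count of 0 allows up to 3 counts or at most 0.186 CPM, and MT-TL2 had 1 count and MT-TG 2 counts over all 6 libraries. Intervals and limits of this kind cover counting error only.

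The spread over replicate numbers was tested with edgeR's quasi-likelihood test on both number terms together, in a model with the treatment, with Benjamini-Hochberg adjustment over 17901 genes. All 13 mRNAs and both rRNAs passed an adjusted p below 0.05, as did 8 of the 12 tRNAs tested, against 47.1% of all genes. In all, 23 of the 27 tested mitochondrial genes, or 85.2%, passed. MT-TV, MT-TM, MT-TN and MT-TC did not. The plus strand mRNAs were higher in number 3 than in number 1 by 0.75 (MT-ND2) to 1.49 (MT-ND5) on the log2 scale, with a median of 1.15 over the 12, whereas the median of all tested genes was -0.01. Of the tested mitochondrial genes, 16 (59.3%) were at least 1 higher on the log2 scale in number 3 than in number 1, compared with 5.50% of all tested genes. Genes of the same strand are cut from shared long RNAs, so the shares of mitochondrial genes do not count independent genes. Of the nuclear-encoded subunits of complexes I, III, IV and V, 35 of 74 passed (47.3%), and their median was 0.04.

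The pattern across the mitochondrial genes was alike in both groups. In siCtrl the CPM of number 3 exceeded that of number 1 by 1.56-fold (MT-ND2) to 2.77-fold (MT-ND5) over the 12 plus strand mRNAs, and in siMED12 by 1.66-fold (MT-ND2) to 2.61-fold (MT-ND5). Number 2 exceeded number 1 by 1.25-fold (MT-ND2) to 1.80-fold (MT-ND5) in siCtrl and by 1.01-fold (MT-ND3) to 1.59-fold (MT-ND5) in siMED12. Across the 13 mRNAs and 2 rRNAs, the log2 ratio of number 3 to number 1 in siCtrl correlated with that in siMED12 at r = 0.983 (rho = 0.864, n = 15 genes). This is a description across genes of the same libraries, which are not independent replicates, and MT-ND6 lies far from the other genes.

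**Figure D3:**
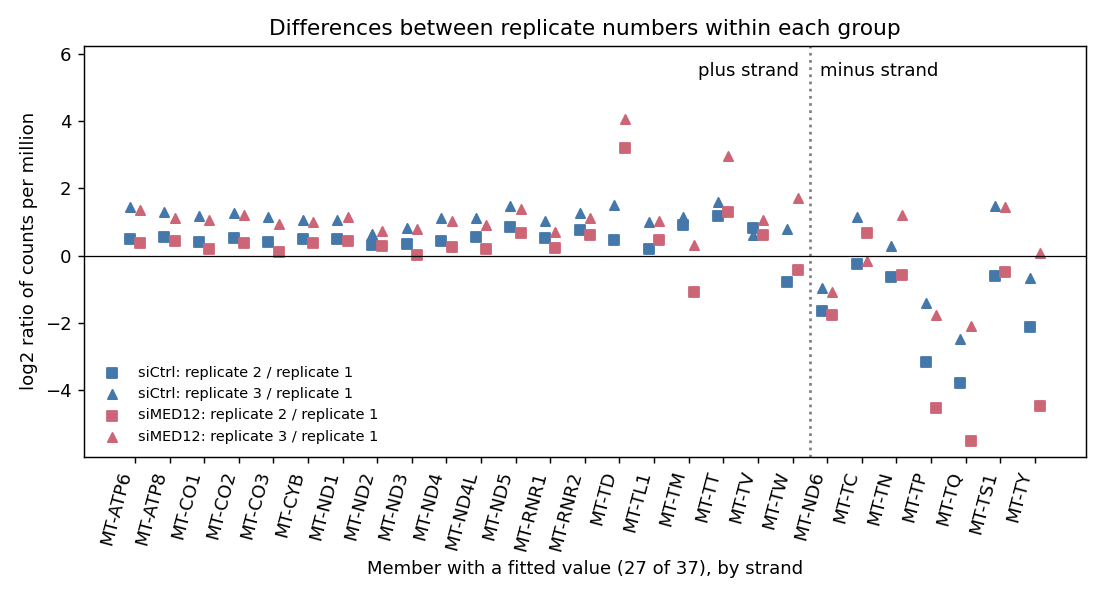
log2 ratio of CPM between replicate numbers within each group (vertical axis) for the 27 mitochondrial genes with a fitted value, with plus strand genes on the left and minus strand genes on the right. Squares compare number 2 and triangles number 3 with number 1. The mRNAs and rRNAs of the plus strand lie above 0, and MT-ND6, MT-TP and MT-TQ lie below it in both groups.

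Several minus strand genes shared the direction of MT-ND6. In the fit, MT-ND6 was lower than in number 1 by -1.65 in number 2 and by -0.97 in number 3 on the log2 scale (edgeR, adjusted p = 7.54e-23). MT-TP followed with -3.52 and -1.50 (adjusted p = 9.63e-07) and MT-TQ with -4.19 and -2.22 (adjusted p = 2.76e-07). MT-TQ had 55, 4 and 10 counts in siCtrl 1, 2 and 3 and 43, 1 and 10 in siMED12. MT-TY had 39, 9 and 25 counts in siCtrl and 21, 1 and 22 in siMED12, lowest in number 2 in both groups. In the fit it differed from number 1 by -2.54 in number 2 and -0.25 in number 3 (edgeR, both number terms together, adjusted p = 0.00113). MT-TE, which did not pass the expression filter, had 56, 5 and 10 counts in siCtrl and 42, 5 and 6 in siMED12. MT-TA, also not tested, had 14, 3 and 2 counts in siCtrl and 7, 0 and 0 in siMED12. MT-TS1, MT-TN and MT-TC, the other minus strand genes, did not have their highest value in number 1. Summed over the 9 minus strand genes, siCtrl 1, 2 and 3 reached 212, 68.6 and 128 CPM, and siMED12 1, 2 and 3 reached 196, 59.2 and 111 CPM. Most of this sum came from MT-ND6, which stood at 188 CPM (siCtrl 1) and 177 CPM (siMED12 1). The summed minus strand tRNAs peaked in number 3 instead. Numbers 1, 2 and 3 gave tRNA sums of 24.6, 9.02 and 32.5 CPM under siCtrl, against 19.4, 7.88 and 28.3 CPM under siMED12. MT-TS1 supplied 25.3 and 23.2 CPM of the 2 number 3 values. The division by strand was made after the values had been seen and is a description.

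**Figure D4:**
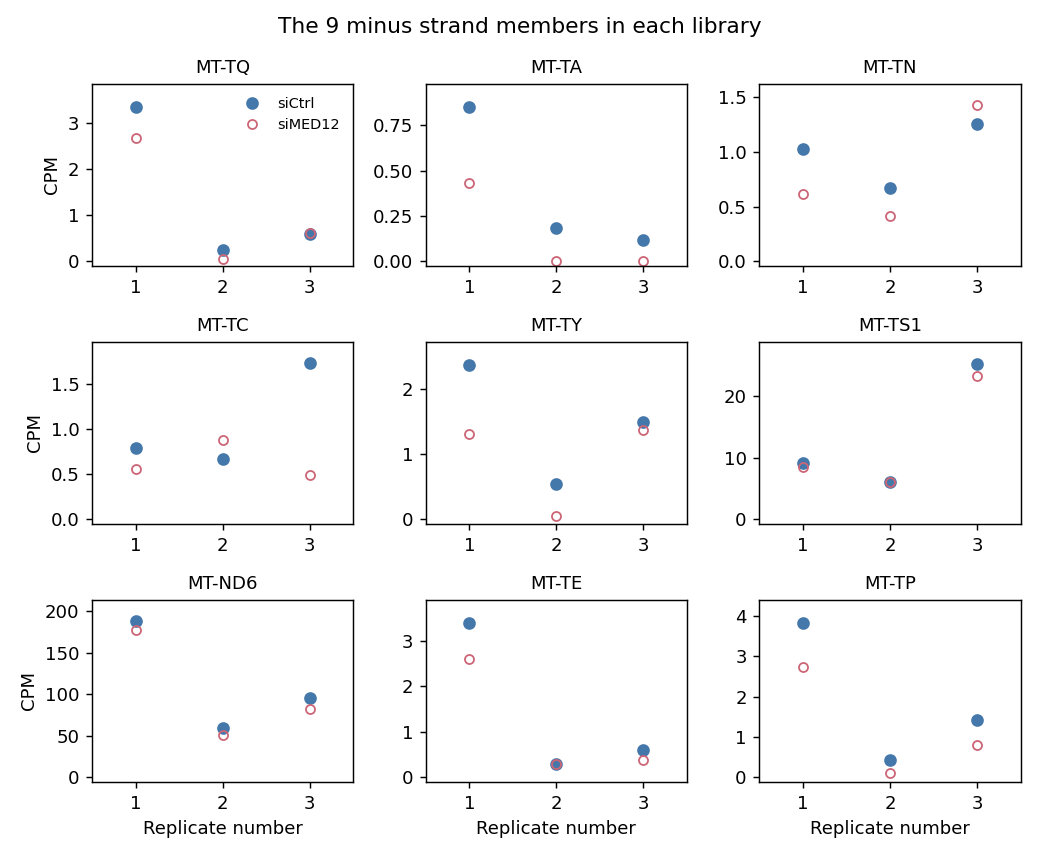
CPM (vertical axes, linear) of the 9 minus strand genes in each library against the replicate number, with filled points for siCtrl and open points for siMED12. MT-ND6, MT-TQ, MT-TE, MT-TP and MT-TA are highest in number 1 in both groups, and MT-TS1 is highest in number 3.

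Levels of some RNAs of other classes also differed between the replicate numbers, which was read from the values without a test. Of 14 listed RNAs without a poly(A) tail, 11 were in the table, and their summed level was 120 to 273 CPM in siCtrl and 92.0 to 260 CPM in siMED12. RN7SK, RPPH1 and RN7SL2 were at 0 in every library. RN7SL1, the RNA of the signal recognition particle, had 138, 200 and 40.2 CPM in siCtrl 1, 2 and 3 and 193, 202 and 36.9 CPM with siMED12, lowest in number 3. RNA5-8SN1, a cytosolic rRNA, had 3.57, 50.6 and 62.0 CPM in the siCtrl libraries and 3.84, 29.6 and 33.9 CPM with siMED12, lowest in number 1. Both were singled out after their values had been seen. The 4 nuclear-retained RNAs summed to 772 to 1451 CPM in siCtrl and 516 to 1136 CPM in siMED12, and MALAT1 had its highest value in number 3 in both groups, at 1067 and 902 CPM. The part of RNA quality or of the poly(A) capture in the differences between replicate numbers was not tested.

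Of the copies of mtDNA in the nuclear genome, the 3 with the most counts moved with the genes they resemble. The 402 annotated copies had 12998 to 26538 counts per library, equal to 1.58% to 1.78% of the mitochondrial counts. MTND2P28 (chr1:629640-630683) had 6076, 8110 and 9644 counts in siCtrl 1, 2 and 3 and 6027, 8165 and 9713 in siMED12. MTATP6P1 (chr1:633696-634376) had 3483, 5471 and 9717 in siCtrl and 3592, 4925 and 9366 in siMED12. MTCO1P12 (chr1:631074-632616) had 2994, 4045 and 6246 in siCtrl and 3232, 3897 and 6408 in siMED12. All were highest in number 3, as were MT-ND2, MT-ATP6 and MT-CO1. Of the 50-base stretches in these genes, 43.6% of MT-ND2, 46.7% of MT-ATP6 and 49.5% of MT-CO1 also occur in a nuclear copy. None of MT-ND3 or MT-ND4L does. None of MT-RNR1 or MT-RNR2 does either, but the copies with counts are all named after mRNA genes. The search therefore cannot show whether the rRNAs have nuclear copies. Counts of MT-ND2, MT-ATP6 and MT-CO1 are less certain, because the sources used here do not state how reads with several matches were handled.

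The comparison of siMED12 with siCtrl asked which genes respond to the loss of MED12, a subunit of the Mediator complex that acts on RNA polymerase II in the nucleus. Without a term for the replicate number, edgeR called 0 of the 27 tested mitochondrial genes higher, against 0.151% of all genes, and 0 lower, against 0.413%. None had an unadjusted p below 0.05, which 2789 of all 17901 tested genes had. The DESeq2 Wald test and limma-trend also called 0, and the shares of all genes they called are not given here. Log2 fold changes of the 13 mRNAs and 2 rRNAs lay between -0.20 (MT-RNR1) and 0.16 (MT-ND5), with standard errors of 0.23 (MT-ND2) to 0.48 (MT-ND6). Differences of this size were not detectable in this fit, since the spread between replicate numbers was larger.

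With the replicate number as a block, 1 mitochondrial gene was called higher in siMED12, against 17.1% of all genes, and 3 were called lower, against 16.2%. The share of called genes was thus near or below that of all genes. MT-ND5 was higher by 0.17 ± 0.035 on the log2 scale (SE, edgeR, adjusted p = 0.000177), and its share of counts was 23.0%, 8.51% and 15.7% above siCtrl in pairs 1, 2 and 3. MT-ND6 was lower, with a log2 fold change of -0.20 ± 0.051 (adjusted p = 0.00224), and its share differed by -5.74%, -13.8% and -13.0%. The genes of these 2 subunits, whose 3′ ends adjoin, therefore differed in opposite directions in 3 of 3 pairs. MT-RNR2 had a log2 fold change of -0.16 ± 0.032 (adjusted p = 0.000117), with differences of -0.992%, -11.5% and -10.9% in the pairs. MT-RNR1 had -0.17 ± 0.042 (adjusted p = 0.00115), with 5.97%, -15.2% and -15.2%, so that pair 1 went the other way on this scale. The groups overlapped for each of the 4 genes.

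These 4 calls were also made in the blocked fit with DESeq2 size factors, with library size only and with scaling on genes not encoded in mtDNA. When single libraries were left out of the blocked fit, MT-ND5, MT-ND6 and MT-RNR2 were called in 6 of 6 cases and MT-RNR1 in 5 of 6, the exception being siCtrl 2 (log2 fold change -0.11, adjusted p = 0.0784). Without siCtrl 1 or siMED12 1 the log2 fold change of MT-RNR1 was -0.30 in each case, and that of MT-ND5 was 0.10 in each case. Leaving out either library of a pair leaves the treatment effect to the same other pairs, so the 6 cases are not separate checks. The count of genes called higher was 4 without siCtrl 2 or siMED12 2, and that of genes called lower was 6 without siCtrl 1, 5 without siMED12 1 and 2 without siCtrl 2. The share of all genes called in these fits is not given here, so no result about the mitochondrial genes is drawn from these counts.

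The other 11 mRNAs were not called in the blocked fit. Their log2 fold changes lay between -0.06 (MT-ND3) and 0.07 (MT-ND1), with standard errors of 0.032 to 0.045. Some of these mRNAs were called under alternatives of the blocked fit. MT-ND1, MT-CO2 and MT-CYB were called with library size only. With single libraries left out, MT-ND3 was called in 4 of 6 fits. MT-ND1, MT-CO2, MT-CO3 and MT-ND4L were called in 2 of these 6 fits and MT-CO1 in 1. The log2 fold changes in these fits did not share 1 direction. They ranged from 0.011 to 0.12 for MT-ND1 and from -0.0013 to 0.11 for MT-CO2. The ranges were -0.16 to 0.022 for MT-CO3, -0.096 to 0.12 for MT-ND4L, -0.088 to 0.046 for MT-CO1 and -0.14 to 0.062 for MT-ND3. None of the 12 tested tRNAs was called in the main blocked fit. MT-TL1 came closest, with 0.19 ± 0.079 (adjusted p = 0.0566), and was called with library size only (edgeR, adjusted p = 0.021). MT-TP had -0.76 ± 0.37 (adjusted p = 0.114). The 7 tested minus strand genes all had fold changes below 0, with and without the block and under all 4 scalings, but only MT-ND6 passed the test, and the 7 share the same libraries.

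**Figure D5:**
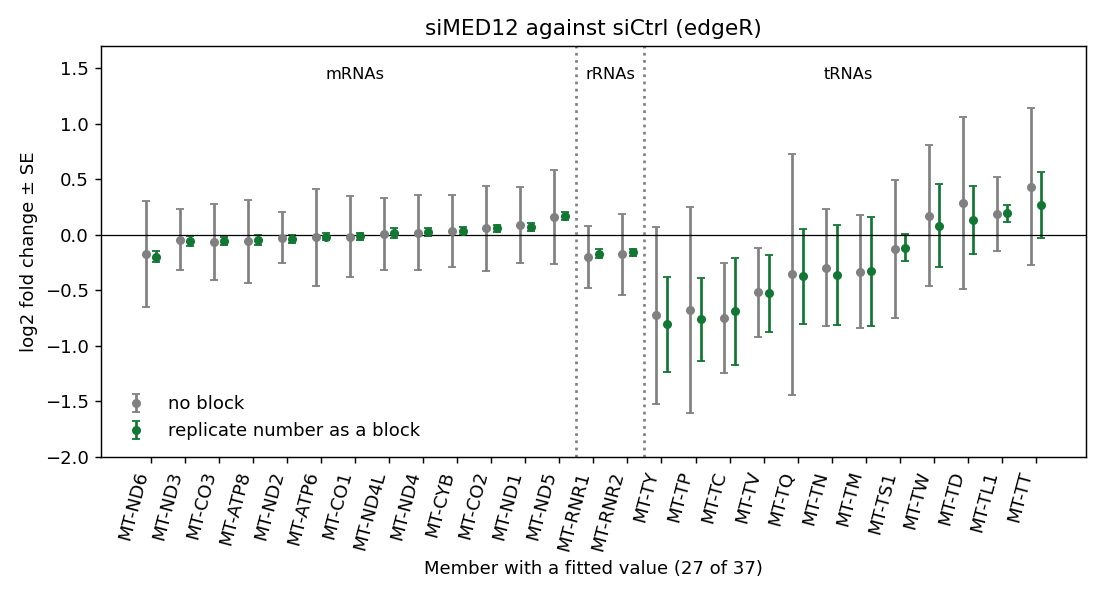
log2 fold change of siMED12 against siCtrl from edgeR (points, with bars for the standard error) for the 27 tested mitochondrial genes, grouped by class and ordered by the blocked value. Grey points are from the fit on treatment alone, and green points include the number as a block. The bars shrink with the block for each mRNA and rRNA, and MT-ND5, MT-ND6, MT-RNR1 and MT-RNR2 are the 4 genes called.

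Nuclear genes for mitochondrial gene expression mostly had fold changes below 0 in siMED12, and which of them passed depended on the block. The list held 66 genes for transcription and replication of mtDNA, RNA processing, RNA stability and modification and for nuclear regulators, of which 62 were tested. Without the block 0 were called in either direction by edgeR, against 0.151% of all genes higher and 0.413% lower. An unadjusted p below 0.05 was found for 20 of the 62, as for 2789 of the 17901 genes tested. The median log2 fold change of the listed genes in this fit was -0.19, with 54 of 62 below 0, beside a median of 0.02 over all genes. The DESeq2 Wald test called 6 of the listed genes lower, and the share of all genes that it called is not given here. With the block, 3 were called higher, against 17.1% of all genes, and 30 lower, against 16.2%.

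The genes named by rule were not called without the block. TWNK, the mtDNA helicase, had 54.3, 70.7 and 61.6 CPM in the siCtrl libraries and 37.8, 39.6 and 45.2 CPM with siMED12, without overlap, and a log2 fold change of -0.65 ± 0.15 (edgeR, adjusted p = 0.0947, and 1.72e-09 with the block). PUS1, a pseudouridine synthase that acts on mitochondrial tRNAs, had -0.50 (adjusted p = 0.0691, and 1.41e-08 with the block). ESRRA, a nuclear receptor that regulates genes of oxidative metabolism, had -0.40 (0.111, and 3.30e-09). GTPBP3, which modifies the wobble base of mitochondrial tRNAs, had -0.43 (0.165, and 1.41e-08). In the other direction FASTK, a protein needed for the MT-ND6 mRNA, had 0.21 (adjusted p = 0.308, and 0.000408 with the block), PRIMPOL, a primase and polymerase, had 0.32 (0.315, and 0.00537), and NSUN3, a tRNA methyltransferase, had 0.19 (0.706, and 0.0453). GABPA had 0.06 and was called in neither fit. By role, the blocked fit called lower 5 of the 9 tested genes for mtDNA transcription, 4 of 10 for replication, 8 of 10 for RNA cleavage and maturation, 4 of 11 for RNA stability and decay, 6 of 15 for tRNA and rRNA modification and 3 of 7 nuclear regulators, against 16.2% of all genes.

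The nuclear partners of the mitochondrial subunits had smaller fold changes. Of 74 subunits of complexes I, III, IV and V, 0 were called without the block in either direction by edgeR. Of all genes 0.151% were called higher and 0.413% lower. An unadjusted p below 0.05 was found for 6 of the 74, and for 2789 of the 17901 genes tested. The median log2 fold change of the subunits in this fit was -0.09, beside 0.02 over all genes. How many were called with the block depended on the scaling, as given below. In the main blocked fit 25 were called lower, against 16.2% of all genes, and 0 higher, against 17.1%. Those called lower were 7 of the 37 subunits of complex I, a share near that of all genes, 4 of 9 of complex III, 3 of 11 of complex IV and 11 of 17 of complex V. ATP5F1D and ATP5MC1, subunits of ATP synthase, had log2 fold changes of -0.42 each (adjusted p = 0.111 and 0.0931, and 2.60e-10 and 9.57e-08 with the block). COX7A2 and NDUFA13, the subunits above 10 CPM on average with the smallest p in the blocked fit among those with fold changes above 0, had 0.08 and 0.18 and were called in neither fit. The mitochondrially encoded MT-ATP6 and MT-ATP8 of the same complex V had -0.02 and -0.05 with the block and were not called.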

How the data were processed

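RNA-seq counts of 6 22Rv1 libraries were analysed, with groups and replicate numbers from the labels. The authors captured poly(A) RNA, prepared strand-specific libraries and counted reads with Rsubread against GRCh38.p13 and Gencode release 43. Its version, the use of strand and the handling of reads matching several places are not given in the sources used here. The deposited counts are raw counts per gene. The deposited log2 CPM values of 17901 genes were recomputed from them with a largest difference of 4.96e-09.

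Genes passing edgeR's expression filter were tested with edgeR 4.0.16 (TMM scaling, quasi-likelihood F-test, R 4.3.3), with Benjamini-Hochberg adjusted p-values below 0.05 called, two-sided. The main design held the treatment only, since the study's methods name no block. However, the legend of a heatmap of 22Rv1 cells in the study mentions a correction for batch and does not name the batch, so the authors may have used such a term. CPM and shares are per assigned counts, without TMM. Libraries with the same replicate number correlated in their deviations from the group means at 0.532, 0.373 and 0.643. Those with different numbers correlated at -0.460 to -0.0233. The numbers were therefore taken as pairs, from the data. Deviations from a group mean cancel out over the libraries of the group. The negative values between different numbers are thus no separate evidence of pairing. Alternatives were the block, other scalings, DESeq2 1.42.0, limma-trend 3.58.1 on the log2 CPM, a filter of at least 1 count and leaving out each library. Shares were tested with exact permutation tests. Gene coordinates and sequences came from Gencode release 44 on the same assembly, with all 37 identifiers found.

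Members and lists were chosen with earlier results of these data known. Values per library were given for the mRNAs, rRNAs and the 5 tRNAs with the most counts. Listed nuclear genes were named by smallest p in the blocked fit, because none was called without it, up to 4 machinery genes and 2 respiratory subunits in each direction if their mean reached 10 CPM, besides the 3 nuclear copies with the most counts. FASTKD4, RNA28SN1, RNA18SN1 and RNA45SN1 did not match a gene name and were not analysed here.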

Additional observations from a re-analysis of the deposited data

How the results depend on the processing

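Adding the replicate block changed the calls of MT-ND5, MT-ND6, MT-RNR1 and MT-RNR2 and of listed nuclear genes, and no other call of a named mitochondrial gene. The number of mitochondrial genes called higher in siMED12 went from 0 to 1 with the block (1 with DESeq2 size factors or scaling on genes not encoded in mtDNA, 5 with library size only), and that of genes called lower from 0 to 3 (3 with each scaling). Of all 17901 genes the blocked fit called 3058 higher and 2908 lower. It called 3807 higher and 2413 lower with library size only. With DESeq2 size factors these were 2960 and 3069, and with scaling on genes not encoded in mtDNA 2859 and 3075. The block with other scalings or with a library left out was chosen after seeing the data. Machinery genes called higher were 3 with the block (3 with library size only, 2 with either other scaling), and those called lower 30 (27 with library size only, 30 with either other scaling). The DESeq2 Wald test called 6 lower and a filter of at least 1 count 2. Respiratory subunits called lower were 25 with the block (13 with library size only, 29 with either other scaling) and 2 with the DESeq2 Wald test, and 2 were called higher with the block and library size only. With library size only, the 13 of 74 called lower stood beside 2413 of all 17901 genes, and the 2 called higher beside 3807. The shares of all genes called by the DESeq2 Wald test and with the filter of at least 1 count are not given here. The number of mitochondrial genes differing between replicate numbers stayed between 21 and 24 under the alternatives, those leaving out a library included.

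Leaving out single libraries, with and without the block, gave 0 to 4 mitochondrial genes called higher, 0 to 6 lower, 0 to 2 machinery genes higher, 0 to 31 lower and 0 to 27 respiratory subunits lower. The shares of all genes called in these fits are not given here. The difference in the mitochondrial share ranged from -1.498 to 1.609 percentage points. Log2 fold changes, none called without the block, ranged over the same fits from -0.46 to 0.091 (MT-RNR1), -0.50 to 0.15 (MT-RNR2), -0.31 to 0.40 (MT-ND1), -0.27 to 0.15 (MT-ND2), -0.44 to 0.38 (MT-CO1), -0.38 to 0.46 (MT-CO2), -0.44 to 0.35 (MT-ATP8), -0.54 to 0.48 (MT-ATP6), -0.45 to 0.31 (MT-CO3), -0.38 to 0.20 (MT-ND3), -0.34 to 0.33 (MT-ND4L), -0.36 to 0.38 (MT-ND4), -0.28 to 0.56 (MT-ND5), -0.79 to 0.32 (MT-ND6), -0.31 to 0.35 (MT-CYB), -0.14 to 0.56 (MT-TL1), -0.95 to 0.72 (MT-TS1), -0.54 to 0.84 (MT-TD), -0.71 to 0.87 (MT-TT) and -2.04 to 0.28 (MT-TP). Each removal from the fit without the block also leaves the replicate numbers unequal between the groups.

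The sign turned for values near 0 under other scalings. With library size only, MT-ND2, MT-CO1 and MT-ATP6 were at 0.0096, 0.019 and 0.013, and at 0.0019, 0.025 and 0.023 with the block as well. MT-ND4L was at -0.0047 with DESeq2 size factors, -0.0098 with scaling on genes not encoded in mtDNA and -0.0047 with the DESeq2 Wald test. MT-TD was at -0.22 with limma-trend. The cause was not tested. Of the tRNAs, 10 did not pass the expression filter and have no fitted value.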

Other observations

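The nuclear-encoded respiratory subunits were also read out of the test of replicate numbers, a view chosen after the values had been seen. The test was passed by 11 of the 37 subunits of complex I, 6 of 9 of complex III, 9 of 11 of complex IV and 9 of 17 of complex V, against 47.1% of all genes. Their median differences between numbers 3 and 1 on the log2 scale were 0.01, -0.08, 0.25 and -0.01. Whether the complexes differ was not tested. The 3 mitochondrially encoded subunits of complex IV, MT-CO1, MT-CO2 and MT-CO3, were higher in number 3 than in number 1 by 1.19, 1.30 and 1.11 on the same scale.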
